A study of Mus musculus with 35 samples.

Results

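The comparison set pancreatic lymph nodes of 20-week-old NOD mice against those of 4-week-old NOD mice, each read as a ratio to control RNA on the same two-colour array. Its members were chosen by their titles: 5 arrays labelled 20 weeks and 6 labelled 4 weeks, 11 of the 35 arrays of a study with 6 ages. NOD (NOD/LtJ) is an inbred mouse strain whose females develop autoimmune diabetes, and the pancreatic lymph nodes are the nodes that drain the pancreas. All mice were female. Whole-node total RNA of NOD mice was labelled with Cy3, and RNA of NOD.B10 (NOD.B10Sn-H2b/J) mice, which carry the b haplotype of the major histocompatibility complex (MHC) on the NOD background, was labelled with Cy5. Per the series description, control RNA was pooled from 2 groups of 10 mice, one aged 10 days and one aged 20 weeks, and no label ties a pool to an array. The NOD channel of every array is labelled diabetic, at 4 weeks as at 20 weeks, and the NOD.B10 channel is labelled control. Nothing in the labels says that the arrays of an age came from separate animals, so the p-values measure the spread between these arrays, which may be technical.

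The strain ratio is the log2 of the NOD signal over the control signal, positive where NOD is higher, and the quantity compared is the mean strain ratio at 20 weeks minus that at 4 weeks. A ratio rises where NOD RNA rises or where control RNA falls, so each difference is also split into a NOD channel part and a control channel part. At 4 weeks 69.0% to 85.9% of probes were well above background in the NOD channel and 42.4% to 49.5% in the control channel. At 20 weeks the shares were 47.3% to 60.3% and 38.4% to 64.4%. All 6 arrays at 4 weeks were scanned on one day with one scanner, which read 1 other array of the series (8 weeks, replicate 2). The 5 arrays at 20 weeks were scanned on another day, 4 on a different scanner and replicate 5 on yet another, so age and scan day cannot be told apart. Of 12 tested markers of lymph node cells, 11 were well above background in the NOD channel on all 11 arrays, Cd4 being the exception. In the control channel 10 were, Cd4 and Cd79a being the exceptions. Of 6 markers of the exocrine pancreas, the digestive enzyme genes Cpa1, Cpb1, Ctrb1 and Pnlip were well above background on all 11 arrays in both channels. Cela1 and Amy2a5 did not meet this in either channel, where an array without a value counts as not met. The liver markers Alb, Ahsg and Apoa1 did not meet it either. In whole-node RNA fewer cells of a type and less RNA per cell cannot be told apart.

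As background, a pancreatic lymph node collects dendritic cells that carry antigens of the islets, and T cells specific for islet proteins are first activated there. B cells, dendritic cells and macrophages present peptides on MHC class II molecules, whose assembly needs the invariant chain Cd74 and the exchange factors of the H2-DM family. Type I interferon and interferon gamma switch on overlapping sets of genes in the cells of the node, and the noncanonical NF-kB subunits Nfkb2 and Relb act downstream of receptors that organise lymphoid tissue.

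The strain ratio differed between the ages for 9962 of 28430 genes (limma, Benjamini-Hochberg adjusted p under 0.05), which is 35% of those tested. It was higher at 20 weeks for 4584 genes (16.1%) and lower for 5378 (18.9%). Among the 9130 genes whose probe was well above background and unsaturated in both channels on all 11 arrays, 5481 (60.0%) passed, 30.9% higher and 29.1% lower. Counts of ratios in the gene lists below are to be read beside the shares of 16.1% and 18.9% over all genes. Counts in a single channel have other shares over all genes. These were 3.11% higher and 4.2% lower in the NOD channel, and 8.69% higher and 9.73% lower in the control channel. The lists differ in how many of their genes were measured on all 11 arrays, and those shares are not matched for this. The difference reached 1 on the log2 scale for 5350 genes (18.8%), and the arrays of the 2 ages did not overlap for 5530 called genes (19.5%). The median difference over all genes was -0.12. With only the 11 arrays in the fit, 7525 genes passed. With scanner as a block in the fit, which links the scanner of the 4-week arrays to the others through a single 8-week array, 3533 genes passed.

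More genes passed in the control channel than in the NOD channel. A count of passes depends on the spread between arrays as well as on the size of the change, and the control RNA was pooled. In the exocrine pancreas list the median was 3.06 in the NOD channel, where 4 of 32 genes passed as higher. It was 1.84 in the control channel, where 25 did. Fitted alone, the NOD channel differed between the ages for 2077 genes (7.31%), 884 of them higher at 20 weeks (3.11%) and 1193 lower (4.2%), and the control channel for 5235 (18.4%), 2470 of them higher (8.69%) and 2765 lower (9.73%). Of the 5350 genes whose ratio changed by at least 1, 228 (4.26%) passed in both channels in the directions that add up, 892 (16.7%) in the NOD channel alone, 2186 (40.9%) in the control channel alone and 2044 (38.2%) in neither. The median share of the NOD channel in the difference was 0.48, with quartiles at 0.24 and 0.71. With each channel scaled to its own 75th percentile 57.8% of the called NOD genes were higher at 20 weeks, against 42.6% with the shared constant, and for the control channel 64.2% against 47.2%.

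The 4-week arrays stood at one end of the age series for most of these genes. For 91.3% of the 5350 genes the mean ratio at 4 weeks was the highest or the lowest of the 6 ages, and for 44.1% the mean at 20 weeks was, whereas over all genes tested the shares were 58.9% and 32.3%. The contrast includes both ages, so these shares are a description.

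The 24 leading genes had the largest differences among genes with a symbol that passed and were measured in both channels on every array. They also had to show no overlap between the ages, so their lack of overlap was a condition of choice. Among them, Mta2, Trim10, Klf1, Kdm6b, Cd74 and Per1 were higher at 20 weeks, and Rmrp, Tra2b, Fam98b, Hmgn5 and Timp2 were lower. Mta2, a subunit of the NuRD chromatin-remodelling complex, had ratios from -2.23 to -2.07 (median -2.17) at 4 weeks and 2.17, 2.17, 1.96, 2.12 and 2.01 on replicates 1 to 5 at 20 weeks. All 5 arrays at 20 weeks were above 0 and all 6 at 4 weeks below it, with little spread inside either age. The difference was 4.25 ± 0.19 (SE), a 19-fold higher ratio (limma, adjusted p = 4.66e-17), with channel differences of 1.7 for NOD and -2.54 for control.

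Kdm6b, the demethylase of lysine 27 of histone H3 that is also called JMJD3, ran from -2.24 to -1.68 (median -2.02) at 4 weeks and read 2.29, 1.99, 1.7, 1.79 and 2.08 at 20 weeks. Its groups did not overlap either, and the difference was 3.95 ± 0.20 (adjusted p = 1.56e-16). Nfya, the DNA-contacting subunit of the CCAAT-binding factor NF-Y, had a difference of 3.97 ± 0.54, most of it in the control channel (-3.04; NOD channel 0.93, adjusted p = 0.266). Fam117a rose by 4.04 ± 0.20, with 2.38 in the NOD channel. Ptk2b, a tyrosine kinase of the focal adhesion family, was at 3.26 ± 0.20 on its brightest probe, but a second probe of Ptk2b had a difference of -3.20 in the opposite direction.

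**Figure D1:**
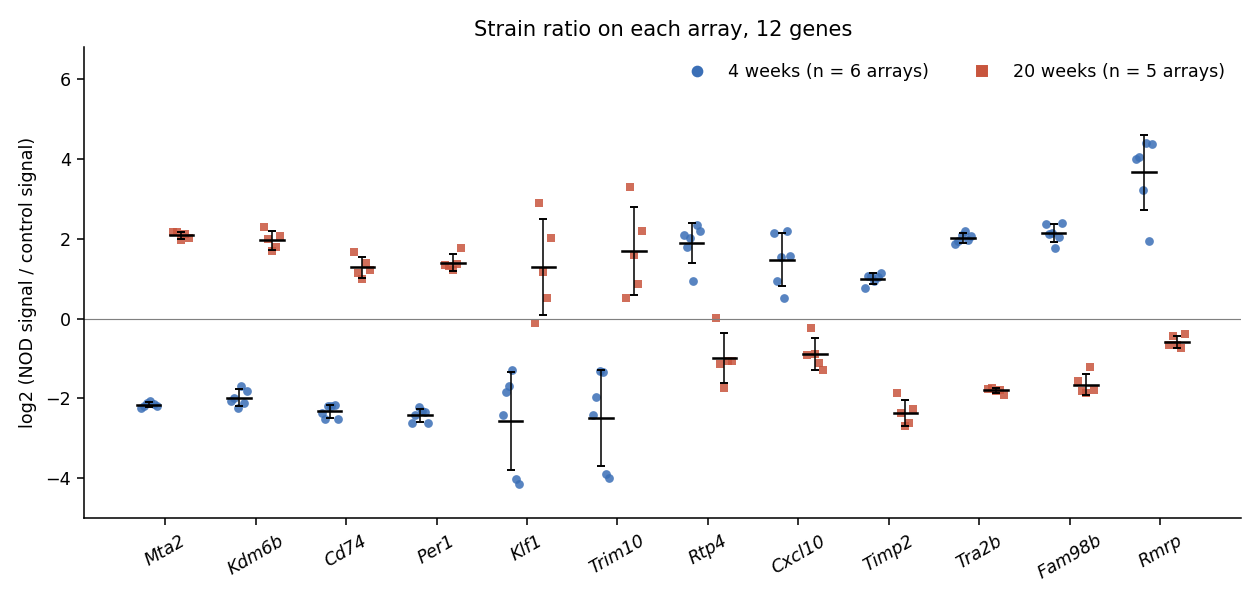
Strain ratio (log2 of NOD signal over control signal) of 12 genes on each of the 6 arrays at 4 weeks (circles) and the 5 arrays at 20 weeks (squares), with horizontal lines for means and bars for SD. The groups do not overlap for any of the 12, which was a condition for choosing the leading genes. Mta2 and Tra2b are tight within each age, whereas Klf1 and Trim10 spread over -4.13 to -1.28 and -3.99 to -1.31 at 4 weeks.

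The largest fall among these genes was in Rmrp, the RNA component of the RNase MRP complex that processes ribosomal RNA. Its ratio ran from 1.94 to 4.4 (median 4.03) at 4 weeks and was -0.66, -0.44, -0.66, -0.74 and -0.39 at 20 weeks. Every array at 4 weeks was far above every array at 20 weeks, and the 20-week arrays lay close together. The difference was -4.24 ± 0.48 (adjusted p = 1.01e-08), and -4.09 of it was in the NOD channel (adjusted p = 5.65e-06), while the control channel moved by 0.15 (adjusted p = 0.811). Timp2, an inhibitor of matrix metalloproteinases, fell mainly in the NOD channel as well. It ran from 0.77 to 1.14 (median 1.05) at 4 weeks and was -1.87, -2.37, -2.7, -2.6 and -2.26 at 20 weeks, a difference of -3.37 ± 0.27, with -2.7 in the NOD channel.

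Tra2b, a regulator of splicing, ran from 1.86 to 2.2 (median 2.02) at 4 weeks and read -1.76, -1.73, -1.82, -1.79 and -1.9 at 20 weeks. Its 11 values formed tight groups on either side of 0, and both channels passed (-2.43 for NOD and 1.4 for control). A second probe of Tra2b, well above background in both channels on every array, was at -0.07 and did not pass. Fam98b, a component of the tRNA ligase complex, was at -3.79 ± 0.18, with values from 1.77 to 2.39 (median 2.14) at 4 weeks and -1.56, -1.83, -1.86, -1.22 and -1.78 at 20 weeks. Gucy1a1, a subunit of soluble guanylyl cyclase, fell by 3.17 ± 0.33, Gbf1, an exchange factor of Golgi transport, by 3.18 ± 0.29, and Pfdn1, a subunit of the prefoldin chaperone, by 3.27 ± 0.28, each with at least 0.5 of the difference in the NOD channel. A second probe of Gbf1, also well above background in both channels on every array, was at -0.19 and did not pass. For Hmgn5, a nucleosome-binding protein (-3.66 ± 0.32), and Esf1, which takes part in ribosomal RNA processing (-3.13 ± 0.16), most of the difference was a control channel that was higher at 20 weeks, by 2.32 and 2.22. Pigbos1 was at -3.09 ± 0.27. Lars, the leucyl-tRNA synthetase (-3.68 ± 0.30), and Rgs3, a regulator of G-protein signalling (-3.07 ± 0.24), had other probes past the threshold in the opposite direction, at 0.52 for Lars and up to 3.24 for Rgs3.

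Such disagreement was common. Where more than 1 probe of a gene passed (2037 genes), 32.6% of the genes had probes called in both directions, and 25% of 824 did among probes measured in both channels on all 11 arrays. Each gene is reported by its brightest probe, so a direction below is that of one probe.

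**Figure D2:**
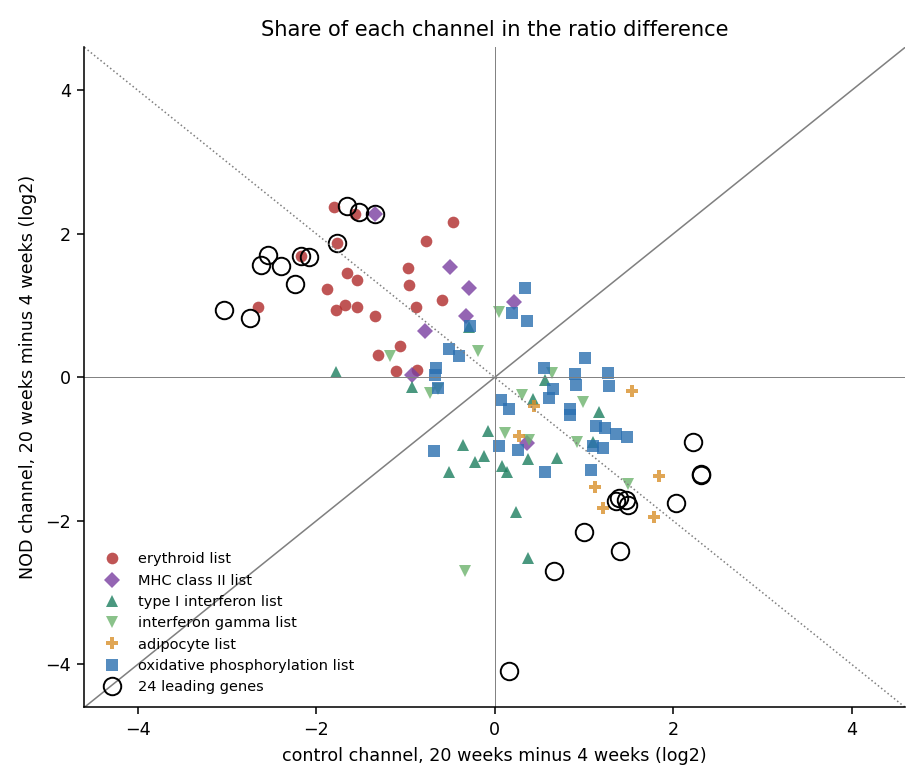
NOD channel difference (vertical) against control channel difference (horizontal), 20 weeks minus 4 weeks on the log2 scale, for the called genes of 6 lists and the 24 leading genes (open circles). The ratio difference is the distance above or below the solid diagonal, and on the dotted diagonal both channels contribute equally; Rmrp lies near 0 on the control axis at -4.09 on the NOD axis.

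Genes of red cell formation were higher at 20 weeks. Of 24 erythroid genes, 22 were higher at 20 weeks and none passed as lower, with a median difference of 2.57, against 16.1% higher and a median of -0.12 over all genes. The median was 1.04 in the NOD channel, where 7 genes passed as higher (3.11% over all genes). In the control channel it was -1.32, and 18 passed as lower (9.73% over all genes). The 7 became 2 without 20-week replicate 2 or 5 or without 4-week replicate 5 or 6, and 3 without 20-week replicate 3. Klf1, the transcription factor of the late red cell lineage, ran from -4.13 to -1.28 (median -2.13) at 4 weeks and was -0.11, 2.89, 1.17, 0.51 and 2.03 at 20 weeks. The groups did not overlap, but the spread inside each was wide and 20-week replicate 1 fell just below 0. The difference was 3.86 ± 0.51 (adjusted p = 2.21e-07). Nfe2, a transcription factor of the red cell and megakaryocyte lineages, was at 3.63 ± 0.43, the anion exchanger Slc4a1 (band 3) at 3.85 ± 0.70, and Kel, the Kell blood group peptidase and no member of the list, at 3.75 ± 0.52.

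Outside that list, Slc25a37, the mitochondrial iron importer mitoferrin, was at 3.57 ± 0.32. The alpha-globin gene Hba-a1, a list member, was at 4.17 ± 0.49, with saturated spots on 2 arrays at 20 weeks in the NOD channel. Trim10, a RING-finger protein of red cell differentiation, was at 4.18 ± 0.49, and Mgst3, a microsomal glutathione transferase, at 3.55 ± 0.41. The mean ratio over the list was -1.2, -0.81, -0.44, -0.69, -2.86 and -2.5 on replicates 1 to 6 at 4 weeks and 0.09, 2.36, 0.87, 0.43 and 1.44 on replicates 1 to 5 at 20 weeks. The arrays did not overlap, 4-week replicates 5 and 6 were the lowest and 20-week replicate 2 the highest. With scanner as a block 2 of the 24 genes passed, with a median of 1.34, and with normexp background correction and loess the median was 1.5.

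The promoters of Kel and Trim10 hold a GATA motif, the sequence read by the erythroid factor Gata1, and are shown for that reason. They are the 250 bases before the RefSeq transcription start (GRCm38.p6), with AGATAA on either strand in capitals.
Kel, chr6:41704326-41704575, minus strand: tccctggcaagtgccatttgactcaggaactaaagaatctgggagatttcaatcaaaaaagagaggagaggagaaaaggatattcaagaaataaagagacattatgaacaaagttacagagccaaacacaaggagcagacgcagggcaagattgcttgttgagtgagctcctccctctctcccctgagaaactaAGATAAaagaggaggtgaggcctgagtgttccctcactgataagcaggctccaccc
Trim10, chr17:36869324-36869573, plus strand: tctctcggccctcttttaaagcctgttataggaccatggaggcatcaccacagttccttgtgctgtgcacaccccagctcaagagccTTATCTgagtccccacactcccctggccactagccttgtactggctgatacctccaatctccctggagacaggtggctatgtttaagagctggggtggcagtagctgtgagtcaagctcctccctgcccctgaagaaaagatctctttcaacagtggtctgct
The motif AGATAA was found on either strand in 9.99% of 32851 such windows, and in those of 5 of the 15 listed erythroid genes that had a window (Alas2, Epb42, Epor, Rhd and Tal1), of which 4 were called as higher. Kel and Trim10 are not on that list. A match is a description of these letters only.

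The platelet and megakaryocyte list, a lineage that shares a progenitor with red cells, had 7 of 15 genes higher and 1 lower (median 0.93). Without 20-week replicate 2 the count was 4 higher, and with scanner as a block 1 was higher and 1 lower with a median of -0.03. Thbs1, the thrombospondin of platelet granules, was at 2.79 ± 0.43, of which 1.72 lay in the NOD channel. Itga2b, the platelet integrin, was at 3.06 ± 0.47. Among 20 neutrophil genes 4 were higher (20.0%) and 2 lower (10.0%), against 16.1% and 18.9% over all genes. The count was 7 higher without 4-week replicate 3, and none passed either way with scanner as a block. The granule gene Ngp was at 2.72 ± 0.45 and Pglyrp1, another granule protein, at 1.76 ± 0.23, whereas the chemokine receptor Cxcr2 was at -1.88 ± 0.28.

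MHC class II genes were higher at 20 weeks relative to the control. Of 13 class II and loading genes 7 rose and 1 fell, with a median of 0.83; with scanner as a block 4 were higher and 1 lower. Cd74, the invariant chain, ran from -2.51 to -2.17 (median -2.28) at 4 weeks and was 1.66, 1.15, 0.99, 1.4 and 1.23 at 20 weeks. Every array at 20 weeks exceeded every array at 4 weeks by more than 3 log2 units. The difference was 3.61 ± 0.17 (adjusted p = 9.04e-17), 2.27 of it in the NOD channel (adjusted p = 9.65e-04). H2-DMb2, a chain of the peptide exchange factor H2-DM, was at 2.03 ± 0.19 with 1.53 in the NOD channel.

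The chains of the class II molecules themselves moved less. H2-Eb1 was at 1.54 ± 0.26 and H2-Ab1 at 1.43 ± 0.16, and 4 probes of H2-Ab1 lay between 1.24 and 1.48. H2-Aa was at 0.83 ± 0.33 (adjusted p = 0.0496), and it lost the call in most alternative fits. NOD.B10 carries another MHC haplotype, and a difference between alleles in probe binding was not tested. The cysteine protease gene Ctss, which trims the invariant chain, was the one member past the threshold as lower, at -1.28 ± 0.15. The mean ratio of the list was -1.01, -0.89, -0.73, -0.78, -0.81 and -1.09 at 4 weeks and 0.12, -0.21, -0.30, -0.25 and -0.27 at 20 weeks, so the ages did not overlap.

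For MHC class I, 10 of 22 genes were higher and 5 lower, 7 and 2 with scanner as a block, with a median of 0.42 in the ratio and -0.51 in the control channel. H2-D1, a classical class I heavy chain, ran from -3.0 to -1.97 (median -2.61) at 4 weeks and was -0.57, -1.17, -1.32, -0.93 and -1.24 at 20 weeks. All 11 ratios were below 0, and those at 20 weeks were all higher than those at 4 weeks (1.49 ± 0.18, adjusted p = 2.96e-08). The nonclassical genes H2-Q2 (1.9 ± 0.35) and H2-Q7 (1.4 ± 0.18) were higher too, mostly through lower control signal (-1.7 and -1.12). H2-K1 was at -0.04 ± 0.28 and did not pass. B2m, the light chain shared by class I molecules, was at -0.74 ± 0.15. H2-M3 was at -1.87 ± 0.18 on its brightest probe, and its second probe was at 1.17 in the opposite direction. Class I genes are near-identical copies of one another, so signal may be shared between them.

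**Figure D3:**
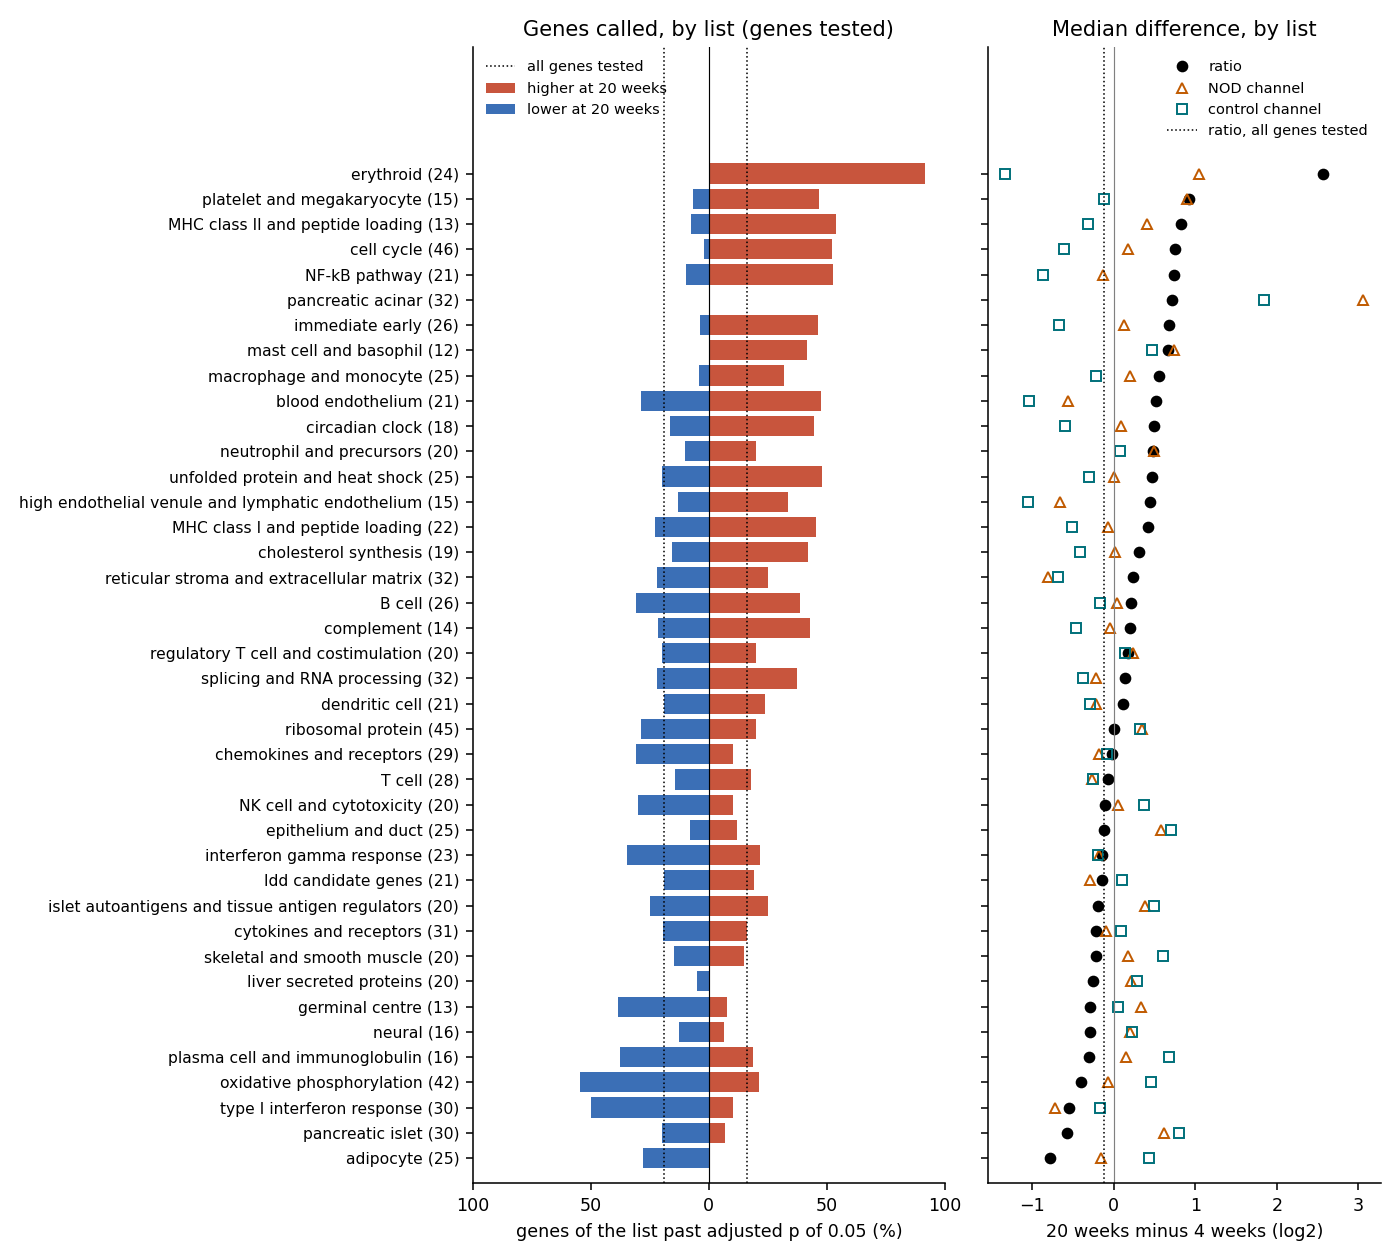
Left, share of the genes of each list that passed (adjusted p under 0.05) as higher or lower at 20 weeks, with dotted lines at the shares over all genes (16.1% and 18.9%); right, median difference of each list in the ratio, the NOD channel and the control channel (log2). The erythroid list leads with 91.7% of genes higher, and the oxidative phosphorylation list has 54.8% lower.

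More interferon-induced genes fell than rose at 20 weeks. Of 30 type I interferon response genes 15 fell and 3 rose, against 18.9% and 16.1% over all genes. The median difference was -0.55 in the ratio, -0.71 in the NOD channel and -0.17 in the control channel. In the NOD channel 7 genes fell and none rose, against 4.2% and 3.11% over all genes. The fit with scanner as a block left 4 genes lower and 0 higher in the ratio, and with normexp and loess the ratio median was -0.22. The 7 calls of the NOD channel became 1 without 20-week replicate 4 or 5 or 4-week replicate 5, and between 2 and 4 without 20-week replicate 2 or 3 or 4-week replicate 1 or 3. Rtp4, an interferon-induced chaperone of receptor transport, ran from 0.94 to 2.34 (median 2.05) at 4 weeks and was 0.02, -1.14, -1.73, -1.06 and -1.05 at 20 weeks. The 2 ages did not overlap, and 20-week replicate 1 was the highest of its age. The difference was -2.89 ± 0.33 (adjusted p = 1.29e-08), with -2.52 in the NOD channel (adjusted p = 8.30e-04). Ifit3, of the interferon-induced proteins with tetratricopeptide repeats, was at -2.12 ± 0.40 with -1.88 in the NOD channel.

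Isg15, a ubiquitin-like modifier, was at -1.52 ± 0.33, Ifit1 at -1.81 ± 0.36, Oasl2 at -1.46 ± 0.38 and Mx2, an antiviral GTPase, at -1.32 ± 0.37. The members that rose were Rsad2, the antiviral protein viperin (1.86 ± 0.39), Isg20 (0.99 ± 0.29) and the transcription factor Irf7 (0.79 ± 0.29). For Rsad2 the control channel fell by 1.78 and the NOD channel was at 0.07. The RNA sensor Ddx58 (RIG-I) fell on its brightest probe (adjusted p = 3.75e-06), while another probe was at 2.20. The mean ratio of the list ran from -0.04 to 0.66 at 4 weeks and from -0.56 to 0.14 at 20 weeks, which overlap, and 20-week replicate 1 was inside the 4-week range.

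Of 23 genes of the interferon gamma response 8 were lower (34.8%) and 5 higher (21.7%), against 18.9% and 16.1% over all genes. The median was -0.14, near that over all genes (-0.12), and its sign changed with the scaling. The count was 2 higher without 20-week replicate 1 and 3 without 20-week replicate 4 or 4-week replicate 2. With scanner as a block 4 were lower and 2 higher. Cxcl10, a chemokine that attracts activated T cells, ran from 0.51 to 2.18 (median 1.56) at 4 weeks and was -0.90, -0.24, -0.88, -1.12 and -1.29 at 20 weeks. No array at 20 weeks reached the lowest at 4 weeks. The difference was -2.36 ± 0.30, with -2.7 in the NOD channel (adjusted p = 0.00239) and -0.34 in the control channel (adjusted p = 0.584). Gbp5, a guanylate-binding protein, was at -2.98 ± 0.30, split evenly between the channels. Ifng itself, the cytokine, was at -1.83 ± 0.32, on a probe that was well above background on part of the arrays, and its second probe was at -0.23 and did not pass. Icam1, an adhesion molecule, went the other way at 1.47 ± 0.17, through lower control signal (-1.17).

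The promoters of Gbp5, Cxcl10 and Ifit3 are shown because each holds the interferon-stimulated response element, GAAA and GAAA separated by any NN, the site of the interferon regulatory factors. The windows are as above, with the element on either strand in capitals.
Gbp5, chr3:142496684-142496933, plus strand: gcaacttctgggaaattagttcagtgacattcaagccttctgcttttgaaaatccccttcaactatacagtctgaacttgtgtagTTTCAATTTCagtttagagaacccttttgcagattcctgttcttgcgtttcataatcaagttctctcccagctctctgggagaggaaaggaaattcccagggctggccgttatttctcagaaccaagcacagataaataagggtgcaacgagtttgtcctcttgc
Cxcl10, chr5:92348890-92349139, minus strand: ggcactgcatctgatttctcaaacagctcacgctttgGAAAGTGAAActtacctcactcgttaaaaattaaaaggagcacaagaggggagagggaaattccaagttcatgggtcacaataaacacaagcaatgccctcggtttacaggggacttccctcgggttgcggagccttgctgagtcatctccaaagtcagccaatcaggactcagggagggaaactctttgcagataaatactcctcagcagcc
Ifit3, chr19:34583279-34583528, plus strand: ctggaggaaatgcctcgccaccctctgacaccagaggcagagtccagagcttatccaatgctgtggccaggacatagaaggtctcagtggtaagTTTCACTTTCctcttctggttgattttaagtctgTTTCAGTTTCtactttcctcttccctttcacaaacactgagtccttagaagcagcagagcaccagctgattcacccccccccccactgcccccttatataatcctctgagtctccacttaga
The element occurred on either strand in 2.98% of all 32851 windows and in those of 8 of 21 type I interferon genes with a window. Of these 8 genes 6 fell (Bst2, Ifit1, Ifit3, Isg15, Oas1a and Stat2), Rsad2 rose and Oas3 did not pass. Gbp5 and Cxcl10 are not on that list, and the share for the interferon gamma list was not taken.

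**Figure D4:**
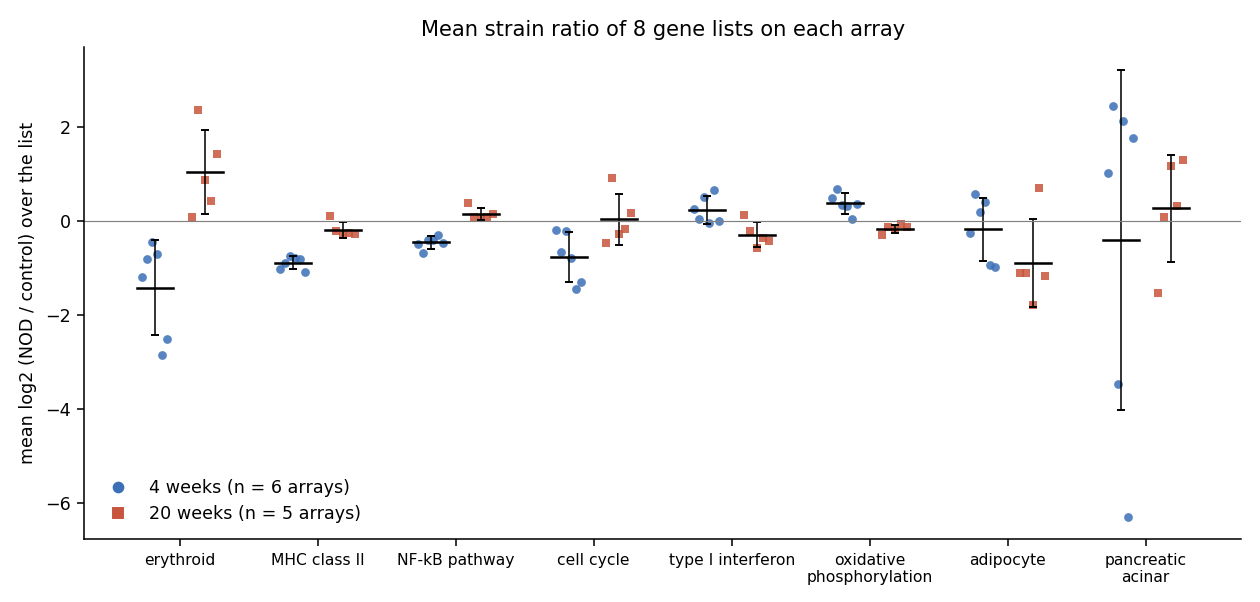
Mean strain ratio (log2) over the genes of 8 lists on each array at 4 weeks (circles, n = 6) and 20 weeks (squares, n = 5), with means and SD. The erythroid, MHC class II and NF-kB lists do not overlap between the ages; the acinar list spreads from -6.29 to 2.46 at 4 weeks.

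More NF-kB genes rose than fell at 20 weeks, and 11 of 21 fell in the control channel, against 9.73% over all genes. Those 11 became 5 without 20-week replicate 5, 6 without 20-week replicate 4 and 7 without 4-week replicate 3 or 5. Of 21 genes 11 rose and 2 fell, with medians of 0.74 in the ratio, -0.13 in the NOD channel and -0.87 in the control channel; the NOD median changed sign with the scaling. Relb, the noncanonical subunit, ran from -1.58 to -1.05 (median -1.28) at 4 weeks and was 1.21, 0.83, 0.59, 1.0 and 0.87 at 20 weeks. Its groups lay on opposite sides of 0 (2.19 ± 0.16, adjusted p = 1.12e-12). Its partner Nfkb2 was at 2.1 ± 0.18 and the kinase that activates them, Map3k14, at 1.53 ± 0.17. The canonical subunits split, with Rela at 1.08 ± 0.12 and Nfkb1 at -0.60 ± 0.17. With scanner as a block 9 of the 21 genes passed as higher, and with normexp and loess the median was 0.48.

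Immediate early genes, which switch on shortly after a stimulus, showed 12 of 26 higher and 1 lower (median 0.68), and 6 higher with scanner as a block. Ier2 (1.99 ± 0.17) and the phosphatase gene Dusp1 (2.03 ± 0.36) rose in the NOD channel, by 1.35 and 1.53, whereas for Ier5 (2.15 ± 0.22) the control channel fell by 2.17 and the NOD channel was at -0.03. Fos was at 1.62 ± 0.33, Myc at 1.88 ± 0.23 and Nr4a1, which is induced by antigen receptor signals, at 1.9 ± 0.34.

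Clock genes gave 8 higher and 3 lower of 18, and 2 higher and 1 lower with scanner as a block. Per1, a repressor arm of the circadian loop, ran from -2.61 to -2.22 (median -2.38) at 4 weeks and was 1.34, 1.33, 1.21, 1.37 and 1.76 at 20 weeks. Both groups were narrow and did not overlap, with a difference of 3.82 ± 0.34 (adjusted p = 9.60e-11) of which 2.3 lay in the NOD channel. Dbp (2.2 ± 0.27) and Tef (1.41 ± 0.27), output factors of the clock that activate through D-boxes, were higher, and Nfil3, which represses at the same boxes, was lower (-1.5 ± 0.26). The promoter of Per1 is shown for its E-box CACGTG, the motif that the clock activators bind, in capitals.
Per1, chr11:69098699-69098948, plus strand: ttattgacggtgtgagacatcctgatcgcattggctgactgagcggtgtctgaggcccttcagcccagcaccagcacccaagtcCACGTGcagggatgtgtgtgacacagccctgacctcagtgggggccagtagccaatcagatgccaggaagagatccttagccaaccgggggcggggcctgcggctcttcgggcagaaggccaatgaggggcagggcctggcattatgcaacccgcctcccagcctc
The E-box CACGTG was present in 6.02% of all windows and in those of 4 of 15 clock genes with a window; CACGTG reads the same on both strands. The labels used here give no time of day for tissue collection.

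Of 46 cell cycle genes 24 rose and 1 fell (median 0.75). The median was 0.18 in the NOD channel and -0.61 in the control channel, where 16 genes fell (9.73% over all genes). The 16 became 9 without 20-week replicate 5 and 10 without 4-week replicate 5. The proliferation marker Mki67 ran from -2.49 to -0.53 (median -0.77) at 4 weeks and was -0.44, 2.11, 0.57, 0.51 and 1.03 at 20 weeks. Its groups did not overlap by a narrow margin and spread widely (2.0 ± 0.36, adjusted p = 3.52e-05). Mcm7, a subunit of the replicative helicase, was at 1.88 ± 0.18, Ube2c, a mitotic ubiquitin-conjugating enzyme, at 1.85 ± 0.34, and the thymidine kinase Tk1 at 1.74 ± 0.28. Per-array means of the list overlapped between the ages, with 20-week replicate 2 the highest at 0.92, which is also the array with the highest erythroid mean. With scanner as a block 3 of the 46 genes passed, and with normexp and loess the median was 0.46.

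The ratios of oxidative phosphorylation genes were lower at 20 weeks for 23 of 42 genes and higher for 9 (median -0.41). In the NOD channel the median was -0.07 and 2 genes fell (4.2% over all genes). The sign of that median changed with the scaling. In the control channel the median was 0.46 and 12 genes rose (8.69% over all genes). The small subunits led the falls: Cox7a2 was at -2.37 ± 0.27, Ndufa1 at -2.31 ± 0.27, Ndufb3 at -2.19 ± 0.17 and Cox7b at -2.15 ± 0.24 on its brightest probe (-0.37 on another, which did not pass). Cox7a2 ran from 0.64 to 2.07 (median 1.69) at 4 weeks and was -1.01, -0.64, -1.07 and -0.53 on the 4 arrays with a value (replicate 4 was left out as an outlier spot) at 20 weeks, with no overlap. Replicate 4 at 20 weeks lacked a value for 13 of the 42 genes, and over the 29 genes with a value on all 11 arrays the list means of the ages overlapped. The members that rose included Ndufv1 (0.99 ± 0.16), Uqcrc1 (0.92 ± 0.16), Cox4i1 (0.90 ± 0.26) and Sdha (0.79 ± 0.16). The fit with scanner as a block left 16 lower and 0 higher. Ribosomal protein genes were mixed, 9 of 45 higher (20.0%) and 13 lower (28.9%), against 16.1% and 18.9% over all genes. With scanner as a block 1 was higher and 6 lower. They ran from Rpl37 at -2.27 ± 0.20 to Rpl4 at 1.71 ± 0.21.

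Genes of RNA processing gave 12 of 32 higher and 7 lower, and 6 and 2 with scanner as a block. Beside Tra2b, the nuclear RNA Malat1 was at -2.22 ± 0.26 and Srrm2, a spliceosome scaffold, at 2.33 ± 0.18. Of 25 chaperone and secretory stress genes 12 rose and 5 fell (median 0.47), but with scanner as a block 5 were higher and 3 lower and the median turned to -0.30. Hsp90ab1, a cytosolic chaperone, was at 2.43 ± 0.16 and the endoplasmic reticulum oxidoreductase Pdia4 at 2.28 ± 0.24, both mainly through lower control signal (-1.99 and -1.79). A second probe of Hsp90ab1 was at 0.60 and did not pass. Calr, the chaperone calreticulin, was at 2.05 ± 0.17, with 1.37 in the NOD channel, although its second probe was at -0.85. In cholesterol synthesis 8 of 19 genes rose and 3 fell (median 0.31), and with scanner as a block 1 passed each way.

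T cell genes were called at shares near those over all genes (16.1% and 18.9%), with 5 of 28 higher (17.9%), 4 lower (14.3%) and a median of -0.06. However, 21 of the 28 were measured in both channels on all 11 arrays. Over all genes so measured the shares were 30.9% and 29.1%, above those of the T cell list. The brightest probe of Cd3e was at -0.64 ± 0.28 (adjusted p = 0.0728), but its second probe, measured on every array, was at 0.56 and passed (adjusted p = 0.0151 over all probes). Cd4 was at -0.49 ± 0.23 (adjusted p = 0.0946), and its second probe, which passed in the opposite direction, was not well above background in the control channel on any array at 20 weeks. Cd8a was at -0.47 ± 0.15 (adjusted p = 0.0166), while 2 other probes of Cd8a were at 0.14 and 1.01. The chromatin organiser Satb1 (1.45 ± 0.21) and the signalling adaptor Lat (1.06 ± 0.14) rose. Il7r, the interleukin-7 receptor, was at -1.61 ± 0.19 on its brightest probe and at 0.89 on another, and Trat1, an adaptor of the T cell receptor, fell (-1.16 ± 0.22).

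Among 20 genes of regulatory T cells and costimulation 4 were higher (20.0%) and 4 lower (20.0%), near the shares over all genes (16.1% and 18.9%), and without 20-week replicate 1 the count was 2 higher. Foxp3, the factor that defines regulatory T cells, was at -0.08 ± 0.32 (adjusted p = 0.876) and Il2ra at 0.23 ± 0.33 (adjusted p = 0.63), with probes above background on part of the arrays. Another probe of Il2ra passed at -1.52 but was not well above background in the control channel on any of the 11 arrays. The probe of Ctla4 was not well above background in the control channel on any array of either age, so no difference is given. Il2 had 2 probes, each above background in the control channel on at most 1 array of an age, and neither passed. Tgfb1, a cytokine that favours regulatory T cells, rose (2.35 ± 0.23), while the costimulatory ligand Cd86 (-1.2 ± 0.17) and the costimulatory receptor Tnfrsf4 (-1.25 ± 0.22) fell. A second probe of Cd86, measured on every array, was at 0.26 and did not pass. A probe of Ikzf2, the factor Helios, was at -1.69 ± 0.30, and another probe was at 0.87.

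B cell genes moved in both directions, 10 of 26 higher and 8 lower, and 6 and 2 with scanner as a block. The survival receptor Tnfrsf13c (BAFF receptor) ran from 0.81 to 1.36 (median 1.2) at 4 weeks and was -0.49, -0.78, -0.65 and -0.87 on the 4 arrays with a value (replicate 4 was left out as an outlier spot) at 20 weeks. It fell with no overlap (-1.84 ± 0.19), as did Vpreb3 (-2.25 ± 0.18), whereas Fcmr, the IgM receptor (1.61 ± 0.16), and Cd79b, a chain of the B cell receptor (1.33 ± 0.15), rose. Cd79a was at 0.23 ± 0.20 (adjusted p = 0.405). No channel passed alone for Tnfrsf13c, Fcmr or Cd79b. In the germinal centre list 5 of 13 fell (0 with scanner as a block), among them Bcl6, the master repressor of that state (-0.80 ± 0.17, NOD channel -1.56), and Rgs13 (-1.3 ± 0.32), and Lmo2 rose (2.25 ± 0.28). Of 16 plasma cell genes 6 fell and 3 rose: Xbp1, the secretory factor, was at 2.21 ± 0.29 and the kinase gene Pim2 at 1.78 ± 0.19, and the chaperone Fkbp11 at -2.45 ± 0.64.

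Of 25 macrophage and monocyte genes 8 rose and 1 fell (median 0.56), and with scanner as a block 4 were higher with a median of 0.20. C1qa, a chain of the complement component C1q made by tissue macrophages, was at 2.54 ± 0.28, and Csf1r, the receptor of macrophage growth factor, at 1.76 ± 0.18, the latter wholly in the control channel (-1.74). Ccr2, the receptor that draws monocytes from blood, was the one that fell (-1.77 ± 0.29), wholly in the NOD channel (-1.74, adjusted p = 0.00505). In the complement list 6 of 14 rose (2 with scanner as a block), with C4b at 1.91 ± 0.23, and 3 fell. Dendritic cell genes gave 5 higher (23.8%) and 4 lower (19.0%) of 21, near the shares over all genes, and the lower count was 2 without 20-week replicate 2, 3 or 5 or 4-week replicate 1. The lineage factor Irf8 was at 1.16 ± 0.15. Of 20 cytotoxicity genes 6 fell and 2 rose (3 fell without 20-week replicate 3), and with scanner as a block 1 passed each way. The sign of the list median (-0.10) changed with the scaling. The protease inhibitor Cst7 was at -1.76 ± 0.21. Mast cell genes were higher for 5 of 12, for 3 without 20-week replicate 1 or 4-week replicate 2 and for none with scanner as a block, and the mast cell protease Mcpt4 was at 1.46 ± 0.39.

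Among 29 chemokine genes 9 fell and 3 rose, and 3 and 1 with scanner as a block. Ccl8, a monocyte attractant, was at -2.89 ± 0.42, mostly a higher control channel (2.25), and Ccr6, a receptor of B cells and type 17 helper T cells, at -1.34 ± 0.15. Cxcr4, which holds lymphocytes in tissue, rose (2.25 ± 0.29). Cytokine genes gave 5 higher (16.1%) and 6 lower (19.4%) of 31, near the shares over all genes (16.1% and 18.9%). Among them were Csf1 at 1.46 ± 0.18 and the receptor Tnfrsf1a at 1.45 ± 0.13, both through lower control signal (-2.03 and -2.02), and Il6ra at 1.58 ± 0.30.

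Vessel and stromal genes gave mixed ratios, with negative medians in both channels. For blood endothelium the medians were -0.56 in the NOD channel and -1.03 in the control channel, and 10 of 21 ratios rose and 6 fell (4 and 2 with scanner as a block). Plvap, a protein of fenestrated and venous endothelium, was at 1.47 ± 0.15 and Ramp2, a receptor partner of adrenomedullin signalling, at -2.54 ± 0.27. Another probe of Ramp2, measured on every array, was at 0.04 and did not pass. Among 15 genes of high endothelial venules and lymphatics 5 rose (3 with scanner as a block), including Ackr1, the venular chemokine receptor (1.82 ± 0.24), Stab2, a scavenger receptor of sinus endothelium (1.38 ± 0.21), and Madcam1, the mucosal addressin (1.01 ± 0.23). Fut7, which makes the sugar ligand of selectins, fell (-1.15 ± 0.25), with -2.39 in the NOD channel. Of 32 stromal and matrix genes 9 fell in the NOD channel and 14 in the control channel, against 4.2% and 9.73% over all genes. In the ratio fibronectin, Fn1, was at 2.65 ± 0.36 and the proteoglycan Lum at -2.27 ± 0.38. The smooth muscle actin Acta2 (2.14 ± 0.18) and Des, desmin (2.11 ± 0.29), rose, with control channel differences of -1.72 and -2.26, and Acta2 turned to -0.21 when the probes of a gene were averaged.

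Exocrine pancreas genes were abundant and uneven. No gene of 32 passed in the ratio (median 0.71), and 20 of them were saturated on some array. The ratio median turned to -5.59 with scanner as a block, where 3 genes passed as lower. The mean level of the list in the NOD channel was 8.22, 10.05, 4.19, 9.57, 1.93 and 9.36 on replicates 1 to 6 at 4 weeks and 8.09, 9.78, 10.67, 9.5 and 10.05 at 20 weeks (log2, relative to the array constant). In the control channel it was 7.2, 7.59, 7.65, 7.44, 8.22 and 7.58 at 4 weeks and 9.63, 9.69, 9.49, 9.16 and 8.75 at 20 weeks. The control channel was thus higher on every 20-week array, where 25 genes passed, while the NOD channel varied widely at 4 weeks, with replicates 3 and 5 the lowest.

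Deaf1, a regulator of tissue antigen genes in lymph node stroma, moved with those levels in the NOD channel on its brightest probe. In the NOD channel it read 3.31, 6.59, 0.78, 5.15, 0.40 and 4.28 on replicates 1 to 6 at 4 weeks and 3.5, 5.12, 7.21, 4.84 and 6.95 at 20 weeks. In the control channel it read 1.88, 2.2, 1.55, 1.78, 2.56 and 1.98 at 4 weeks and 5.5, 5.43, 5.74, 5.11 and 5.84 at 20 weeks. Replicates 3 and 5 at 4 weeks were the lowest in the NOD channel for Deaf1 and for the acinar list alike. The control levels did not overlap between the ages for either, but within an age their order differed. At 20 weeks control replicate 5 was the lowest for the acinar list (8.75) and the highest for Deaf1 (5.84). At 4 weeks control replicate 5 was the highest for both. The part of acinar RNA in the Deaf1 signal was not tested. The ratio difference of Deaf1 was -1.43 ± 1.12 (adjusted p = 0.345), and a second probe passed at 1.41. Aire, the other regulator of tissue antigens, was higher at 20 weeks (1.04 ± 0.22, adjusted p = 3.30e-04).

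The insulin genes did not pass in the ratio. Ins1 ran from -1.59 to 3.23 (median 2.45) at 4 weeks and was 2.63, 2.45, -1.38, 1.35 and 2.23 at 20 weeks (-0.11 ± 1.0, adjusted p = 0.945), and Ins2 ran from -2.52 to 4.5 (median 3.63) and was 2.21, 1.78, -3.54, 1.0 and 1.82 (-1.34 ± 1.25, adjusted p = 0.437). Both ages held arrays above and below 0. In the control channel both were higher at 20 weeks, by 2.76 and 3.09 (adjusted p = 2.81e-08 and 7.92e-09). The probe of Ins1 was not well above background in that channel on every array. Of 30 islet genes 6 were lower in the ratio and 2 higher, and 12 rose in the control channel (8.69% over all genes). The 6 became 2 without 20-week replicate 3 and 3 without 20-week replicate 4 or 4-week replicate 2. The median was -0.58, and with scanner as a block it was -1.55 and 13 genes passed as lower. The probes of Gcg (glucagon) and Iapp (islet amyloid peptide) were not well above background in the control channel on any array at 4 weeks, so no difference is given for them. The secretory granule gene Scg5 was at -0.75 ± 0.24. Islet autoantigens and their regulators gave 5 higher and 5 lower of 20 (2 and 7 with scanner as a block), among them Ica1, an islet autoantigen (-1.15 ± 0.28), and genes in diabetes susceptibility (Idd) regions 4 and 4 of 21 (1 and 2 with scanner as a block), with the phosphatase Ptpn22 at -1.33 ± 0.21 and the complement inhibitor Cd55 at -0.91 ± 0.16.

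Adipocyte genes were lower for 7 of 25 and none passed as higher (median -0.78), 12 were lower without 20-week replicate 4 and 3 with scanner as a block, with the control channel median 0.44 higher and the NOD channel median -0.16. Fabp4, the fatty acid carrier of fat cells, was at -3.03 ± 0.61, Lpl, lipoprotein lipase, at -2.65 ± 0.45, Pck1 at -3.73 ± 1.02 and Car3 at -3.22 ± 0.78. Second probes of Lpl (0.87) and Car3 (-1.265) did not pass. Lpl ran from -0.03 to 1.91 (median 0.39) at 4 weeks and was -1.76, -1.98, -1.97 and -1.91 on the 4 arrays with a value (replicate 4 was left out as an outlier spot) at 20 weeks, and the ages did not overlap. The mean ratio of the list was -0.25, 0.57, 0.19, 0.40, -0.93 and -0.98 at 4 weeks and -1.09, -1.1, -1.78, 0.72 and -1.16 at 20 weeks, where replicate 4 stood apart from the other 4 arrays, also over the 18 genes with a value on every array (0.69). That array had no value for 5 of the 7 genes that passed, so these differences rest on the 20-week arrays with the lower ratios. The part of fat cell RNA in the other results was not tested. The sign of the NOD median changed with the scaling. The liver gene list, as a comparison, had 1 of 20 genes past the threshold, Rbp4 at -2.98 ± 0.69, a gene that fat cells express too.

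Set among the 6 ages, the leading genes took different courses (mean ± SD; n was 7, 6, 4, 7, 6 and 5 arrays from youngest to oldest). Mta2 read 0.13 ± 0.10 in mice aged 10 days, -2.16 ± 0.06 at 4 weeks and 0.10 ± 0.30 at 8 weeks. Later it was at 0.24 ± 0.59 (12 weeks), 2.27 ± 0.14 (16 weeks) and 2.09 ± 0.10 (20 weeks). It was thus low at 4 weeks, near 0 at 3 other ages and high at the 2 oldest. Cd74 was similar, with 0.17 ± 0.16 at 10 days, 0.35 ± 0.43 at 8 weeks and 1.96 ± 0.18 at 16 weeks. Klf1 went up and down, at 0.57 ± 0.99 at 8 weeks, -2.62 ± 0.60 at 12 weeks and -1.78 ± 0.75 at 16 weeks. Rmrp was at 0.73 ± 1.01 at 10 days, peaked at 4 weeks and was below 0 from 8 weeks on, at -0.44 ± 0.49 at 8 weeks and -1.6 ± 1.13 at 12 weeks. The mean of Rtp4 was 0.68 ± 0.46 at 8 weeks, 0.11 ± 0.89 at 12 weeks and -0.26 ± 0.29 at 16 weeks, between its 4-week and 20-week levels.

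**Figure D5:**
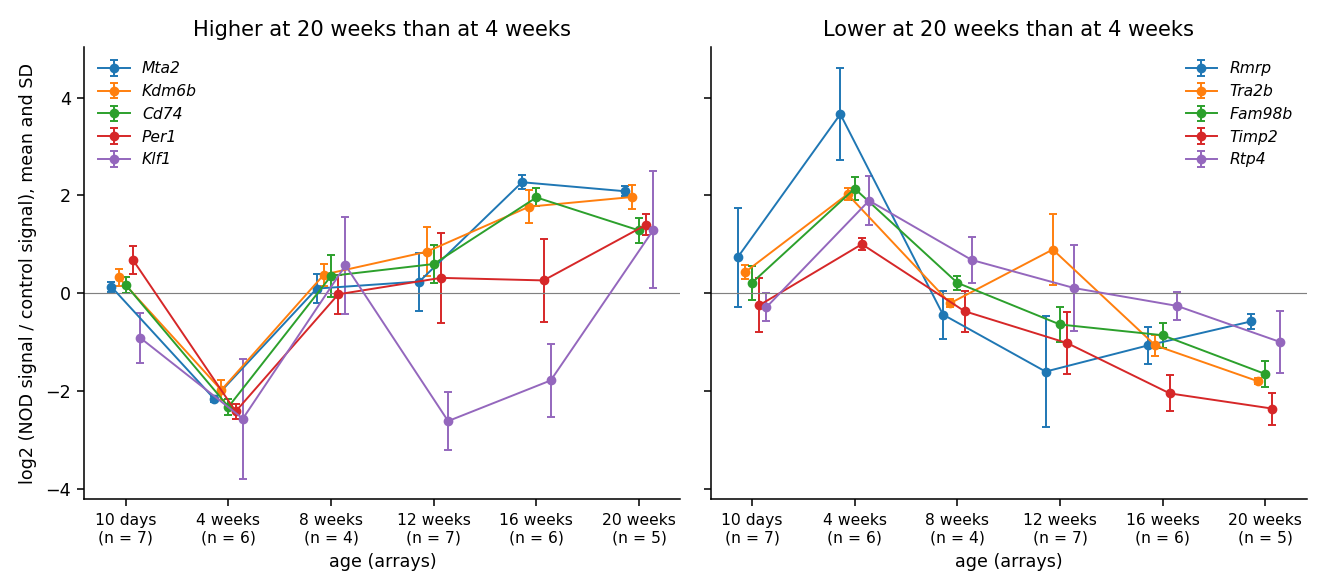
Mean strain ratio (log2, bars SD) of 10 leading genes at all 6 ages, genes higher at 20 weeks than at 4 weeks on the left and lower on the right; lines join ages for reading only. Klf1 is low at 4, 12 and 16 weeks, and the mean of Timp2 is lower at each age after 4 weeks, reaching -2.36 at 20 weeks.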

How the data were processed

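Agilent arrays with a pair of dyes of pancreatic lymph node RNA were read by the authors with Agilent Feature Extraction (8.5 per the submitters' processing notes; the file headers give 8.5.1.1 for 24 arrays, among them the 11 compared, and 8.1.1.1 for the other 11), which subtracted background and normalized the dyes. The deposited processed signals are intensities, per the file headers, and the deposited value table holds the log10 ratio, which equalled the scanner files' ratio turned to NOD over control. Here the strain ratio was log2 of the NOD over the control intensity. Control and outlier spots were left out, spots of a probe averaged, probes kept that exceeded background clearly in one channel or the other on 4 or more arrays (40833 of 41174), and the brightest probe taken per gene (28430 genes, 19262 with a symbol through RefSeq accessions, symbols or synonyms). limma 3.58.1 in R 4.3.3 was fitted to the 6 age means over all 35 arrays, with Benjamini-Hochberg adjustment. For the channels, each array was shifted by 1 constant shared by both. On simulated data for 28430 genes, 50 were changed at each size. Of changes of 0.5 on the log2 scale 4% were recovered, 48% of changes of 1, 94% of 2 and 100% of 3, with 7 false calls among 130. With so few changed genes the adjusted threshold is stricter than in these data, where 35% passed. The recovered shares therefore do not carry over to this comparison. Named genes were the largest differences measured on every array without overlap between the ages, the leading members of each list, and a set of genes of diabetes and lymph nodes. Further list members (such as Isg15, Ctss, Myc, Rela and the oxidative phosphorylation genes that rose) were named after their values were seen. Members and lists were chosen with earlier results of these data known. Alternatives covered background correction, values, centring, filters, probes, arrays, blocks, covariates and channel scaling. Results for some genes are not reported here.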

Additional observations from a re-analysis of the deposited data

Results flagged for a closer look

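Of 362 groups of 5 or 6 values checked, 23 held 1 array that stood apart from the rest by more than Dixon's limit, and chance alone marks about 1 in 20. Among means over gene lists at 20 weeks, replicate 1 was the highest for MHC class II (0.1188), liver (0.9087), NF-kB (0.3813) and complement (0.5203). Replicate 4 was the highest for adipocyte genes (0.7157) and replicate 3 the lowest for NK cell genes (-0.5641). At 4 weeks, replicate 5 was the lowest for ribosomal proteins (-0.2167) and the highest for clock genes (-0.1747), and replicate 1 was the highest for cholesterol synthesis (0.009507).

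Among single genes at 4 weeks, replicate 5 was the lowest for Hmgn5 (1.532), Tspan8 (-2.559) and Syn1 (-1.849), and the highest for Fcmr (-1.052) and Tnfrsf1a (-0.2482). Replicate 1 was the highest for Tgfb1 (-0.4379) and replicate 2 for Ica1 (1.72). At 20 weeks, replicate 1 was the highest for Ccr6 (-0.7914), Hsp90ab1 (0.6253) and C4b (2.229), and replicate 2 for Cxcr2 (0.6829). Replicate 5 was the lowest for Plvap (0.5838), replicate 4 for Syn1 (-0.3193) and replicate 3 for Ins2 (-3.536).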

How the results depend on the processing

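The 9962 genes whose strain ratio differed became 5350 when a difference of at least 1 on the log2 scale was also asked for, 6286 when every array compared had to read a probe clearly in both dyes, and 3533 with scanner as a block, where the 4-week scanner is tied to the others by 1 array. The 2077 genes of the NOD channel became 3853 with the channel scaled to its 75th percentile and 4264 with quantile normalization, and 1132 to 2391 when 1 array was left out at a time, the lowest without 20-week replicate 5. The other alternatives kept the counts of the ratio and of the control channel within 1.5 times. Averaging the probes of a gene turned the direction of Rgs3 (1.085), Cd8a (0.2311) and Acta2 (-0.2069), and the probe of H2-M3 measured on all 11 arrays was at 1.166. With scanner as a block 42 of the named genes lost their call, among them Klf1, Nfe2, Kel, Mki67 and Ifng. Replicate numbers did not pair the samples: arrays of one number had deviations correlated between -0.13 and 0.037, and with a replicate block 9692 genes passed for the ratio, 2623 for the NOD channel and 5562 for the control channel. List means over genes with a value on all 11 arrays were added after seeing the data. The number of arrays limits the precision.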
